A study of Mus musculus with 9 samples.

Results

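The caveolin and cavin genes encode the coat of caveolae, small flask-shaped pits of the plasma membrane. The group described here holds 8 genes of 54838 in the count table: the caveolins Cav1, Cav2 and Cav3, the cavins Cavin1, Cavin2 and Cavin3, and the accessory genes Ehd2 and Pacsin2. They were chosen by their known role in caveolae, after Cav2 had been seen to be higher in the control clone of these data, so the members' values that involve the control clone are given as a description, with no test or call. Of the 8 members, 7 passed the filter on low counts. Cav3, the muscle caveolin, had 0 counts in all 9 libraries.

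The cells were PDA530 Met, a mouse pancreatic ductal adenocarcinoma line. It was started from a liver metastasis in a male KPC mouse, which models this disease genetically. Its background is given as mixed 129/SvJae/C57Bl/6, and the design text writes the name of the parental cells as PDA50 Met. RNA-seq counts were deposited for 9 untreated cultures in DMEM with foetal bovine serum, in 3 groups of 3 biological replicates. The knockout group is 1 single-cell clone, E4, edited with CRISPR/Cas9 in Zdhhc20, which encodes a palmitoyltransferase, an enzyme that joins palmitate to cysteines of proteins. The control group is 1 single-cell clone, C5, nucleofected with the same guide RNAs but not edited, and the parental group is the uncloned line without either step. Each clone stands for itself: a difference between the knockout clone and the other groups cannot be told apart from a difference between clones. What the labels call biological replicates are cultures of 1 clone or line, and p-values measure only the spread between them.

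Caveolins are hairpin membrane proteins that carry palmitate on cysteines and bind cholesterol. CAV1 builds the coat outside muscle, CAV2 joins it in hetero-oligomers, and CAV3 takes the place of CAV1 in muscle. Cavins are cytosolic coat proteins: CAVIN1 is needed for caveolae to form, CAVIN2 and CAVIN3 join it in separate complexes, the ATPase EHD2 holds the neck of the pit, and the F-BAR protein PACSIN2 bends the membrane there. Caveolae are best known from endothelium, fat, muscle and fibroblasts, act as a membrane reserve under stretch, and are also found in epithelial tumour cells.

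The genes lie on 5 chromosomes (GRCm38, GENCODE M21). Cav2 (ENSMUSG00000000058, chr6:17281185-17289115, plus strand) and Cav1 (ENSMUSG00000007655, chr6:17306335-17341452, plus strand) are neighbours whose starts are 25.15 kb apart. Cav3 (ENSMUSG00000062694) is on the same chromosome at chr6:112459505-112472872, plus strand. Cavin1 (ENSMUSG00000004044) spans chr11:100956733-100970887 on the minus strand and Cavin2 (ENSMUSG00000045954) chr1:51289126-51302960 on the plus strand. Cavin3 (ENSMUSG00000037060, chr7:105480083-105482300) and Ehd2 (ENSMUSG00000074364, chr7:15946958-15967567) lie on the minus strand of chromosome 7, and Pacsin2 (ENSMUSG00000016664, chr15:83375607-83464606) is on the minus strand. Antisense or overlapping genes were nearly silent: Gm15581 over Cav1 and Cav2 had at most 2 counts in a library, 9330175M20Rik over Cavin2 at most 4 and Gm45667 over Cavin3 at most 3, while the pseudogene Gm5417 within Pacsin2 had at most 80.

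Because Cav2 and Cav1 are adjacent and were both highest on average in the control clone, the 250 bases before their starts are shown, 5′ to 3′ on the plus strand, from the RefSeq promoter table (GRCm38.p6). Capitals mark matches to GGGCGG or its reverse complement CCGCCC, the GC box letters of Sp factors, and to TGANTCA, the AP-1 letters, which read alike on both strands.
Cav2, chr6:17280935-17281184: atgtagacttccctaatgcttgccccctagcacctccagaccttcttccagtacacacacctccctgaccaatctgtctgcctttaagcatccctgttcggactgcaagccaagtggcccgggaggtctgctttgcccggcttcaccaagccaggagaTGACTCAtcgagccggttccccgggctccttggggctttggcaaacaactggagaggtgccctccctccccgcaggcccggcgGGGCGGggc
Cav1, chr6:17306085-17306334: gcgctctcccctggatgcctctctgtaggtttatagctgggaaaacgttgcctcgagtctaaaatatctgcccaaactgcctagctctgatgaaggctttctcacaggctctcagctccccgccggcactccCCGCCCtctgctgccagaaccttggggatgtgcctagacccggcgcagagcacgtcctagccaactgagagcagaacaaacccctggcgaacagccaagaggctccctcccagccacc
The Cav2 window holds TGACTCA, its first base 92 bases before the start, and GGGCGG 9 bases before it. The Cav1 window holds CCGCCC 118 bases before the start and no match to the AP-1 letters. Neither window had the TEAD letters, GGAATG, on either strand. Over 32851 RefSeq promoter windows of the same length, 32.7% hold the GC box letters, 6.75% the AP-1 letters and 12.6% the TEAD letters, and GC content was 62.0% for Cav2 and 59.6% for Cav1 against a median of 52.4%. A match is a run of letters and was not tested for binding, and the Cav1 table has 2 entries, of which the one at the annotated gene start is printed.

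Library totals ran from 16525869 to 23192701 counts. Zdhhc20 itself, in TMM-scaled CPM, counts relative to library size, was 75.3, 81.2 and 90.7 in the parental libraries, 123, 85.8 and 120.2 in the control clone and 37.5, 33.9 and 42.5 in the knockout clone. Its transcript was thus lower in every library labelled knockout than in the other 6, and was not lost (log2 -1.12 from parental cells, SE 0.15, adjusted p = 0.000585 by edgeR). Of 8 markers of ductal epithelium, 7 were over 5 CPM, with Epcam under 1 CPM on average. Most markers of other cell types were low: 6 of 10 fibroblast markers were at 0 in every library and the list summed to at most 4.05 CPM, the 8 endothelial markers (Pecam1 and Cdh5 among them) summed to at most 0.577 CPM, and 2 of 6 leukocyte markers were at 0. Of 6 muscle markers 4 were at 0, but Des, the desmin gene, was at 5.15, 2.62 and 7.09 CPM in the control clone and at most 0.53 CPM in the other libraries. Of 5 adipocyte markers 4 averaged under 1 CPM and 1 of these was at 0, while Cidec, a lipid droplet gene, averaged 32.3 CPM in the parental libraries.

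The RNA levels of the members differed widely. To compare genes, CPM was divided by the exon length of each gene. Averaged over all 9 libraries, Cavin1 stood at 223 CPM per kilobase and Cav2 at 161. Cav1 (65.0), Pacsin2 (57.0), Cavin2 (46.1) and Ehd2 (35.1) formed a middle band, and Cavin3 stood at 7.98 CPM per kilobase. In the parental libraries the mean level per kilobase was 251 ± 7.78 for Cavin1 and 127 ± 1.22 for Cav2 (SD, n = 3), well apart. Pacsin2 (58.4 ± 1.43), Cavin2 (56.3 ± 3.84) and Cav1 (51.5 ± 4.47) had SDs that touch or nearly touch, so their order is not resolved. With the longest transcript as length, Pacsin2 was at 75.8 and Cav1 at 81.5 CPM per kilobase over all libraries. Ehd2 (36.9 ± 0.474) and Cavin3 (11.04 ± 1.47) followed, apart from each other and from the rest. Cavin1 and Cav2 thus had the highest levels per kilobase, and Cav2 exceeded Cav1 in every library by a ratio between 2.12 and 3.41.

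**Figure D1:**
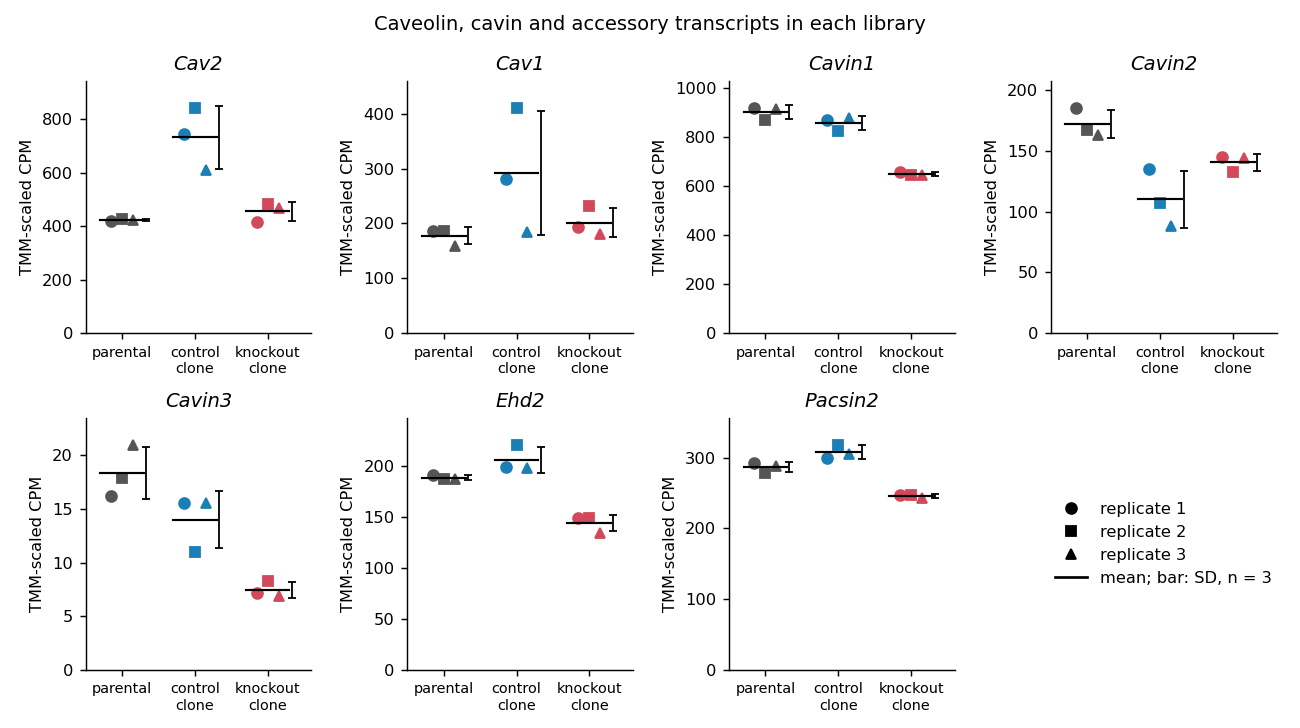
TMM-scaled CPM (vertical axis, from 0) of the 7 expressed genes in each of the 9 libraries, by group; symbols are libraries, horizontal lines group means and bars the SD over 3 libraries. The 3 knockout libraries lie below all other 6 libraries for Cavin1, Cavin3, Ehd2 and Pacsin2, while Cav2 and the Cav1 mean are highest in the control clone. Over all tested genes, 31.7% had every knockout library below every parental library, and the share below all other 6 was not counted.

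Cav2, the gene that led to the choice, was measured at 419.5, 428 and 423 CPM in the parental libraries. In the control clone it was at 745, 842 and 609.8 CPM, and in the knockout clone at 415, 483 and 469.6 CPM. All 3 control libraries lay above all 6 others, and the knockout and parental libraries overlapped. The means were 423 ± 4.07, 732 ± 117 and 456 ± 36.3 CPM (SD, n = 3), which puts the control clone 1.73-fold above parental cells (log2 0.79, SE 0.11) as the value behind the choice.

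Cav1, the coat-forming caveolin, was at 186, 186 and 159.6 CPM in the parental libraries. The control libraries held 282, 411 and 185 CPM and the knockout libraries 193, 231 and 179.98 CPM. Replicates 1 and 2 of the control clone were above every other library, but replicate 3 lay among the parental and knockout values. The control mean of 293 ± 113 CPM therefore carries a wide spread: the log2 difference from parental cells was 0.72 (SE 0.24), 0.39 without control replicate 2 and 0.97 without control replicate 3. Cav2 followed the same order within the control clone, highest in replicate 2 and lowest in replicate 3, with a difference of 0.68 without replicate 2 and 0.91 without replicate 3. The summed ductal markers ran the other way between these 2 libraries, at 7038 CPM in replicate 2 and 9406 CPM in replicate 3, with 7 of 8 markers lower in replicate 2. Their part in the caveolin values was not tested. These 2 libraries also differed most over the tested genes. Against sampling noise, chi-square per gene was 92.9 between them and 39 and 50 for the other control pairs. It ran from 5 to 15.6 between parental replicates and from 7.44 to 18.4 between knockout replicates.

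The knockout clone against the parental cells is the comparison that does not use the levels of the control clone. It asks how the coat transcripts stand in the clone edited in Zdhhc20. Its tests are not fully independent of the choice: the control libraries enter the shared estimate of the spread. The members were also chosen with earlier results of these data known. Across all 13153 tested genes, 31.4% were called by the quasi-likelihood test of edgeR at a Benjamini-Hochberg adjusted p under 0.05, and 18.3% were called lower. Of the 7 tested members, 4 were called lower (Cavin1, Cavin3, Ehd2 and Pacsin2) and 0 higher. By DESeq2 and by limma voom these 4 genes and no other members were called too, and 0 members were higher at an unadjusted p under 0.05. The median log2 fold change of the 7 was -0.29, against -0.0064 over all tested genes. In 5 of the 7, every knockout library lay below every parental library, a separation that 31.7% of tested genes showed.

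The caveolins did not pass the test. Cav1 differed from parental cells by 0.18 on the log2 scale (SE 0.24, adjusted p = 0.596 by edgeR), with a 95% interval from -0.35 to 0.72. This value was 0.074 without knockout replicate 2 and 0.26 without knockout replicate 3. For Cav2 the difference was 0.11 (SE 0.11, adjusted p = 0.511 by edgeR), with an interval from -0.15 to 0.36. These intervals leave room for a change in either direction, a wider one for Cav1. They rest on an estimate of the spread that includes the control libraries. With only the compared groups in the fit, the adjusted p by edgeR was 0.121 for Cav1 and 0.165 for Cav2.

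Cavin1, the cavin without which caveolae do not form, was at 917, 867 and 915 CPM in the parental libraries. The control clone held 870.2, 822 and 875 CPM and the knockout clone 657, 642 and 645 CPM. The knockout libraries sat in a narrow band below all others, while control and parental libraries overlapped. Cavin1 fell 1.39-fold from parental cells (log2 -0.47, SE 0.062, adjusted p = 0.000555 by edgeR), to 72.0% of their level, lower in 3 of 3 libraries. Against the control clone the difference was -0.40 (SE 0.062).

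Cavin3, the least abundant cavin here, is known as a binding partner of protein kinase C delta and was once named Prkcdbp. Its parental libraries held 16.2, 17.9 and 21.005 CPM, its control libraries 15.5, 10.9 and 15.6 CPM and its knockout libraries 7.13, 8.29 and 6.89 CPM. The 3 groups fell in the order parental, control, knockout with no overlap between any pair. Cavin3 fell 2.46-fold from parental cells (log2 -1.30, SE 0.17, adjusted p = 0.000509 by edgeR), the largest difference among the 7 members. The differences that involve the control clone were -0.92 (SE 0.17) for the knockout clone against it and -0.38 (SE 0.16) for it against parental cells. The latter was -0.48 without parental replicate 1 and -0.24 without control replicate 2.

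Cavin2, the phosphatidylserine-binding cavin once named Sdpr, was at 185, 167.5 and 163 CPM in the parental libraries. The control libraries held 135, 107 and 88.2 CPM and the knockout libraries 145, 133 and 144 CPM. Both clones lay below all parental libraries, and the control clone reached the lowest values and the widest spread. Against parental cells the knockout clone stood at -0.29 (SE 0.14, interval from -0.60 to 0.016), which did not pass the test (adjusted p = 0.135 by edgeR). It was called when the control libraries were left out of the fit (adjusted p = 0.00329) and without control replicate 3 alone (adjusted p = 0.0311), both by edgeR. The control clone stood at -0.64 (SE 0.14) from parental cells, and the knockout clone at 0.35 (SE 0.14) from the control clone with overlapping libraries. The latter value was 0.21 without control replicate 3 and 0.53 without control replicate 1.

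Ehd2, which encodes the ATPase at the neck of caveolae, was at 192, 188 and 187 CPM in the parental libraries. It was at 199, 221 and 198 CPM in the control clone and at 149, 149 and 135 CPM in the knockout clone. Every knockout library was below the 6 others, and the control libraries lay just above the parental ones. Ehd2 fell 1.31-fold from parental cells (log2 -0.39, SE 0.074, adjusted p = 0.00378 by edgeR). The knockout clone stood at -0.52 (SE 0.074) from the control clone, which was itself at 0.13 (SE 0.074) from parental cells.

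Pacsin2, the membrane-bending F-BAR gene, was at 292, 279 and 289 CPM in the parental libraries. The control libraries held 299.6, 318 and 305 CPM and the knockout libraries 247, 247 and 243 CPM. The groups did not overlap, with the knockout clone lowest and the control clone highest. The difference from parental cells was the smallest of those called (log2 -0.22, SE 0.061, adjusted p = 0.0221 by edgeR), a 1.17-fold fall. The call was lost without the filter on low counts and when some single libraries were left out. Without parental replicate 1 or 3, or without any 1 of the knockout replicates, the adjusted p by edgeR was between 0.0617 and 0.0855, with log2 differences from -0.21 to -0.23. The knockout clone stood at -0.32 (SE 0.061) from the control clone.

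**Figure D2:**
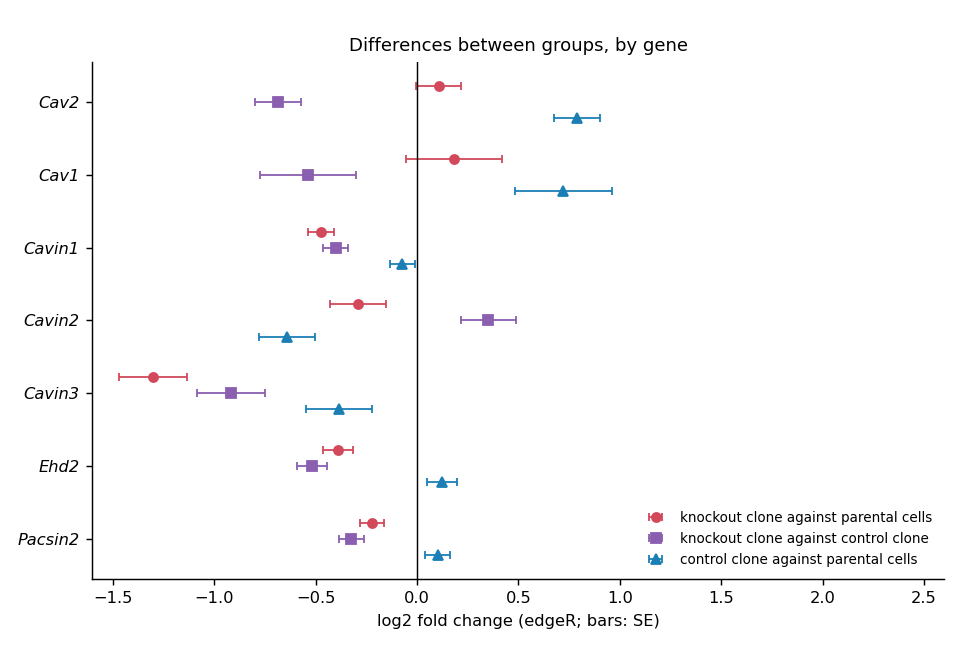
Log2 fold changes (horizontal axis) of the 7 expressed genes between the 3 pairs of groups from 1 edgeR fit, with the SE as bars. Knockout against parental values range from -1.30 (Cavin3) to 0.18 (Cav1); the values that involve the control clone are a description, since that clone led to the choice of the genes.

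Over all tested genes, 24.2% were called lower by edgeR in the knockout clone against the control clone, and 21.4% were called in either direction in the control clone against parental cells. No call is given for the members there, since the control clone led to their choice. All 3 comparisons share libraries, so the values of a member are tied: the knockout clone was at 0.11 from parental cells and at -0.68 from the control clone for Cav2, but at -0.47 and -0.40 for Cavin1. In Cav2 the control clone stood apart from both other groups, and in Cavin1, Cavin3, Ehd2 and Pacsin2 all knockout libraries were the lowest. Over all tested genes, 31.7% had every knockout library below every parental library. The share below the control libraries too was not counted, and that separation uses the clone that led to the choice.

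Marker lists also differed between the knockout clone and parental cells, where 18.3% of all tested genes were called lower and 31.4% in either direction. The 8 ductal markers summed to between 4343 and 4474 CPM in the knockout libraries, against 6734 to 8206 CPM in the parental libraries, and 5 of the 8 were called lower. Epcam was called higher, but with 10 to 13 counts in each knockout library and at most 5 in any other it passed the filter on low counts only through the knockout group. The 5 adipocyte markers summed to between 15.9 and 18.4 CPM in the knockout libraries and between 29.8 and 38.6 CPM in the parental libraries, and both tested ones were called lower: Cidec (log2 -0.91, SE 0.23, adjusted p = 0.0155 by edgeR) and Fabp4 (adjusted p = 0.0225 by edgeR), the latter from 0.51 to 0.095 CPM. Fabp4 had 11, 9 and 8 counts in the parental libraries and 0, 3 and 2 in the knockout libraries. It passed the filter on low counts only through the control clone. The fibroblast markers summed to between 0.876 and 1.67 CPM against 3.12 to 4.05 CPM. Pdgfra, the only gene of that list that was tested, carried this difference, at 0.702 CPM in the knockout clone against 2.94 CPM. Col1a1 went the other way, at 0.647 against 0.482 CPM. The part of these shifts in the lower cavin transcripts was not tested. In bulk RNA, fewer cells of a type and less RNA per cell cannot be told apart. The chromosomes that carry the called members did not share the fall: the median log2 difference of knockout from parental was 0.00068 over 1030 tested genes of chromosome 11, -0.023 over 973 of chromosome 7 and 0.094 over 523 of chromosome 15. For Cavin2 the median over 762 genes of chromosome 1 was -0.14, and -0.17 in the control clone against parental cells.

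The balance between cavin and caveolin transcripts can be followed within each library. Cavin1 per kilobase over the sum of Cav1 and Cav2 per kilobase was 1.42, 1.33 and 1.47 in the parental libraries. It was 0.795, 0.616 and 1.03 in the control clone and 1.02, 0.845 and 0.932 in the knockout clone. Both clones lay below all parental libraries and overlapped each other. In the control clone the sum of the caveolins was higher than in parental cells while Cavin1 overlapped with them, whereas in the knockout clone Cavin1 was lower and the caveolins overlapped. The ratio rests in part on Cav2 and is a description. With the longest transcript as length the means were 1.17 ± 0.0620, 0.681 ± 0.175 and 0.777 ± 0.0712 (SD, n = 3) for parental, control and knockout.

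The other ratios differed in their pattern. Cav2 over Cav1, the balance within the caveolins, was 2.33, 2.37 and 2.74 in the parental libraries, 2.73, 2.12 and 3.41 in the control clone and 2.22, 2.16 and 2.69 in the knockout clone, with all 3 groups overlapping. Cavin1 over Cavin3 was 26.3, 22.5 and 20.2, then 25.9, 34.8 and 26.0, then 42.7, 35.9 and 43.4 in the same order, so the knockout clone had the least Cavin3 for its Cavin1. Cavin1 over Cavin2 was 4.22, 4.41 and 4.78 in the parental libraries, 5.49, 6.53 and 8.45 in the control clone and 3.87, 4.12 and 3.81 in the knockout clone, with no overlap between groups. Ehd2 over Pacsin2 lay between 0.532 and 0.578 in the knockout libraries and between 0.622 and 0.667 in the other 6.

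**Figure D3:**
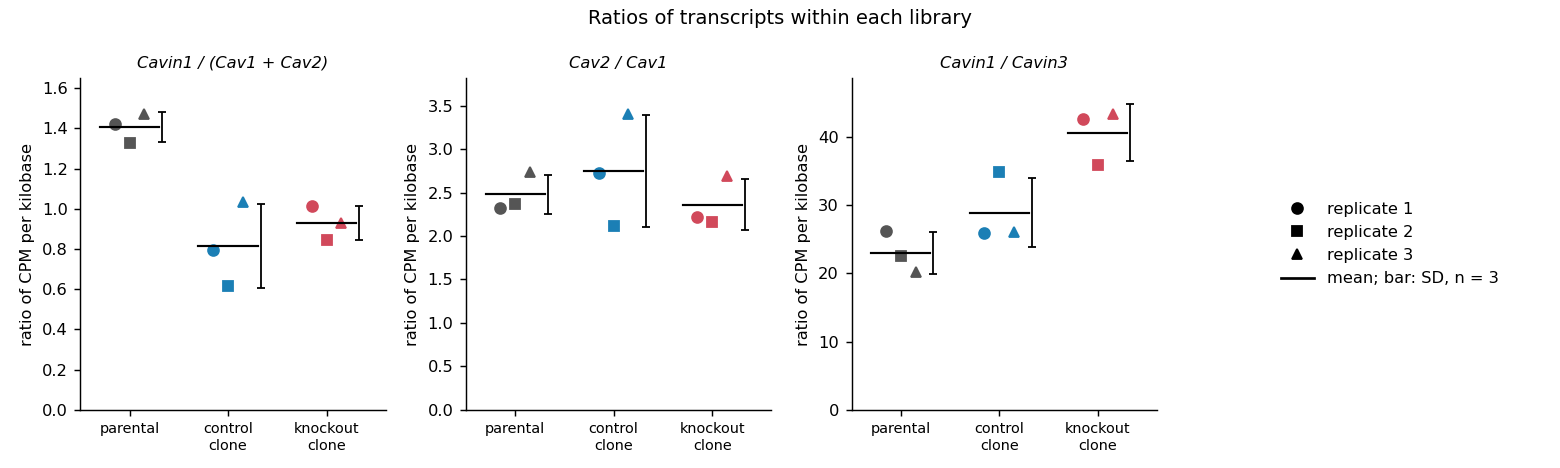
Ratios of CPM per kilobase of exon between members within each library (vertical axes, from 0), by group; symbols are libraries, lines group means and bars the SD over 3 libraries. Cavin1 over the caveolin sum is below every parental library (1.33 to 1.47) in all 6 clone libraries, Cav2 over Cav1 overlaps between groups, and Cavin1 over Cavin3 is highest in the knockout clone.

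The 10 tested neighbours of Cav2 and Cav1 (5 on either side) varied among themselves. In the control clone against parental cells, Tes, a focal adhesion gene whose start lies 216 kb before that of Cav2, was at -0.05 (SE 0.080). On the other side Met, the receptor of hepatocyte growth factor, was at -0.03 (SE 0.081), Capza2, an actin capping subunit, at 0.03 (SE 0.084) and St7 at -0.02 (SE 0.13). Farther out, 1110019D14Rik was at 0.88 (SE 0.20), above both caveolins, Gm5874 was at -1.52 (SE 0.32), and Cftr had no count in the control clone. These 3 were the neighbours called by edgeR, 1 higher and 2 lower, where 21.4% of all tested genes were called. The median over the 637 tested genes of chromosome 6 was 0.14. In the knockout clone against parental cells, 2 of the 10 neighbours were called higher and 2 lower by edgeR, where 31.4% of all tested genes were called. These were Gpr85 at 1.24 (SE 0.25), Tes at 0.37 (SE 0.080), Mdfic at -0.53 (SE 0.11) and Cftr, a gene of low level with a parental mean of 1.46 CPM and no count in the control clone, at -2.84 (SE 0.43). Cftr averaged 0.20 CPM in the knockout clone and passed the filter on low counts only through the parental libraries, where it is high. A lower call was thus favoured in advance, and Cftr is among the 2 lower calls of both comparisons.

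**Figure D4:**
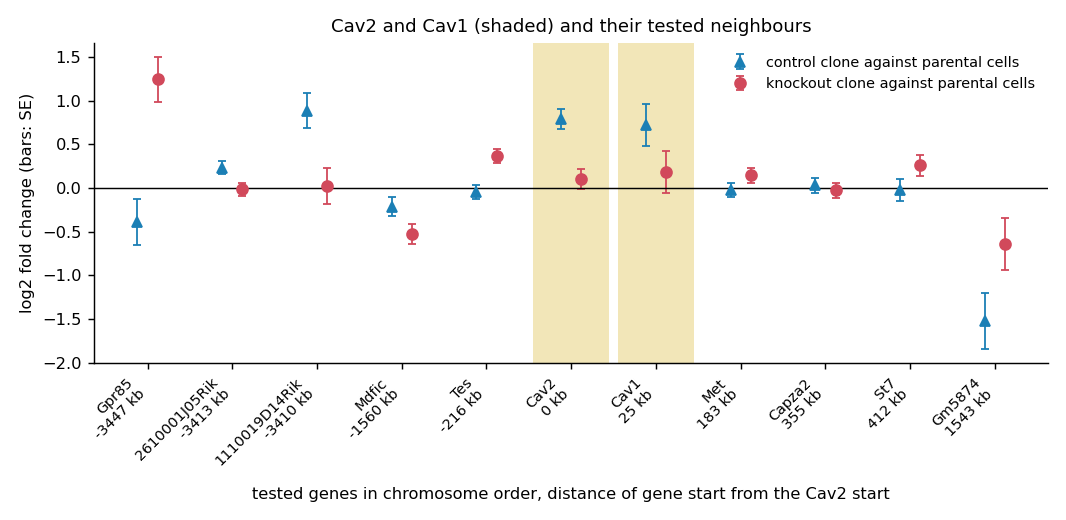
Log2 fold changes (vertical axis, bars SE) of Cav2, Cav1 (shaded) and their tested neighbours in chromosome order, with the distance of each gene start from the Cav2 start in kilobases; Cftr, with no count in the control clone, is not drawn. In the control clone against parental cells Cav2 (0.79) and Cav1 (0.72) stand above Tes, Met, Capza2 and St7, which lie between -0.05 and 0.03, while 1110019D14Rik is at 0.88 and Gm5874 at -1.52.

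The genes whose log2 CPM was most like that of Cav2 over the 9 libraries were sought among the 10020 genes that averaged 5 CPM or more. Emg1 led with r = 0.988, followed by Metrn (0.986), Mrpl53 (0.985), Nr3c1 (0.977) and Hdhd2 (0.974). For Cav1 they were Psmb6 (0.984), Dcun1d2 (0.982), Ankle1 (0.977), Cdipt (0.973) and Trmt61a (0.971). These are Pearson coefficients over libraries that fall into 3 groups, given with no test. Each gene named here had its highest mean in the control clone, and how far that sets the coefficients was not tested. Spearman's rho ran from 0.667 (Hdhd2) to 0.983 (Emg1) for the 5 genes of Cav2 and from 0.733 (Psmb6) to 0.867 (Trmt61a) for those of Cav1; ranked by rho, 1 and 0 of them were among the first 5. Cav1 and Cav2 had r = 0.856 and rho = 0.467 with each other. That put Cav1 at place 354 among the genes most like Cav2.

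The wider caveola machinery had calls in both directions in the knockout clone against parental cells. Of 17 listed partners of caveolae, 14 were tested, 2 were called lower and 3 higher by edgeR, with a median of 0.10. These 5 of 14 are close to the 31.4% called over all tested genes. Ehd3, an EHD relative of Ehd2, was at 0.92, 0.71 and 1.24 CPM in the parental libraries and had 0 counts in the knockout libraries, at least 17.6-fold lower against a floor of 3 counts over the group. Dnm2, the dynamin that cuts vesicles from the membrane, fell from 138 to 79.8 CPM (log2 -0.79, SE 0.098, adjusted p = 0.0004 by edgeR). It lies on chromosome 9, where the median over 748 tested genes was -0.53. Flna, the filamin that ties caveolae to actin, rose from 1529 to 2219 CPM (log2 0.54, SE 0.11, adjusted p = 0.00446 by edgeR). Ankrd13b, a ubiquitin-binding adaptor of endocytosis, rose by 0.54 (SE 0.11, adjusted p = 0.00522 by edgeR), and the kinase gene Src, known to phosphorylate CAV1, by 0.28 (SE 0.078, adjusted p = 0.0223 by edgeR).

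Among 15 genes of other membrane microdomain scaffolds, 12 were tested, 5 were called lower and 1 higher, with a median of -0.22, where 18.3% of all tested genes were called lower and 31.4% in either direction. The MAL family and its relative plasmolipin, tetraspan proteins of apical sorting and myelin, made up the largest differences. Pllp, which encodes plasmolipin, was at 14.6, 17.4 and 21.005 CPM in the parental libraries and at 2.98, 3.06 and 2.86 CPM in the knockout libraries (log2 -2.57, SE 0.32, adjusted p = 0.0004 by edgeR). Mal fell from 262 to 89.1 CPM (log2 -1.56, SE 0.18, adjusted p = 0.000285 by edgeR), and Mal2 from 25.2 to 7.20 CPM (log2 -1.81, SE 0.26, adjusted p = 0.000861 by edgeR). Stoml1, a stomatin relative on chromosome 9, fell by 1.09 (SE 0.20, adjusted p = 0.00286 by edgeR), where the chromosome median was -0.53. The flotillins, scaffolds of a separate microdomain, did not pass the test, at -0.14 (SE 0.12) for Flot1 and -0.11 (SE 0.068) for Flot2.

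Clathrin coats make the other main type of pit. Of 25 listed genes of that route, 23 were tested, 6 were called lower and 2 higher, with a median of -0.12. These 8 of 23 are close to the 31.4% called over all tested genes, and 5 were called without the filter on low counts. Dab2, a cargo adaptor, was at 28.04, 31.8 and 28.2 CPM in the parental libraries and had 1 count in the 3 knockout libraries together, a ratio of 1626 with a counting interval from 291 to 64260. Dnm1, another dynamin, fell from 3.45 to 1.09 CPM (log2 -1.65, SE 0.34, adjusted p = 0.00535 by edgeR). Hip1r fell by 0.63 (SE 0.16, adjusted p = 0.0152 by edgeR), and Ap2m1, the cargo-binding subunit of the AP-2 adaptor, by 0.58 (SE 0.074, adjusted p = 0.000473 by edgeR). Ap2m1 lies on chromosome 16, where the median over 403 tested genes was -0.29. Another AP-2 subunit gene, Ap2b1, was called higher, at 0.22 (SE 0.062, adjusted p = 0.0231 by edgeR). The other gene called higher was Fcho2, at 0.27 (SE 0.074, adjusted p = 0.0206 by edgeR). The heavy chain gene Cltc stood at 0.25 (SE 0.11, adjusted p = 0.128 by edgeR) and did not pass.

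Of 13 genes for receptors and signalling proteins described in caveolae, 9 were tested and 0 were called by edgeR, with 2 at an unadjusted p under 0.05 and a median of -0.0016. Over all 13153 tested genes 31.4% were called and 5613 had an unadjusted p under 0.05. DESeq2 and limma voom also called 0 of them, and edgeR without the filter on low counts called 2, Cd36 lower and Itgb1 higher. Insr, the insulin receptor gene, stood at 0.32 (SE 0.20) and Egfr at -0.14 (SE 0.27).

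**Figure D5:**
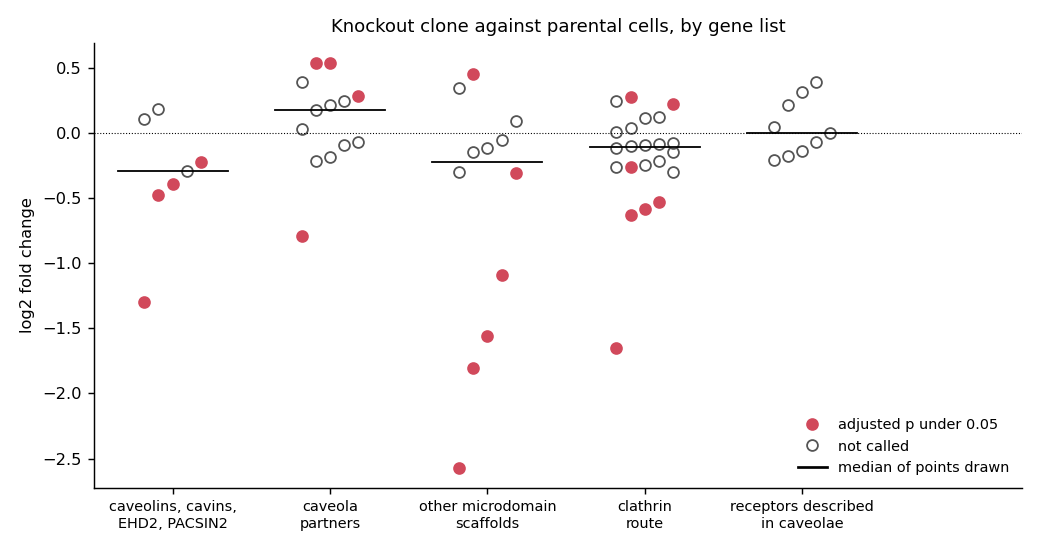
Log2 fold changes of the knockout clone against parental cells (vertical axis) for the tested genes of 5 lists; filled points were called by edgeR at an adjusted p under 0.05, and lines are medians of the points drawn. Ehd3 and Dab2, with 0 and 1 counts in the knockout libraries, are not drawn. The called genes of the first list, Cavin1, Cavin3, Ehd2 and Pacsin2, all lie below 0, while the receptor list has no filled point.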

How the data were processed

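The authors deposited RSEM estimated counts per gene for 9 libraries. RSEM 1.3.0, STAR 2.5.2, DESeq2 1.10.1 and build GRCm38 are named, per the submitters' processing notes, with no role given. The annotation release and strand setting are not given in the sources used here. All columns were used, and symbols and positions come from GENCODE M21 (54809 of 54838 identifiers). Counts were tested with edgeR 4.0.16 (glmQLFit, glmQLFTest) in R 4.3.3 after filterByExpr (minimum count 10, total 15) and TMM scaling. A single fit of all 9 libraries had group as its only term, 13153 genes were tested, and calls used a Benjamini-Hochberg adjusted p under 0.05. The SE is the log2 fold change over the square root of the F statistic. Bounds use a floor of 3 counts over the group, and intervals on counts cover counting error only. Alternatives were other scalings and filters, DESeq2 1.42.0, limma voom 3.58.1, only the compared groups, a replicate block and each library left out. Examples from other lists were the called genes with the largest changes. Src, Flot1, Flot2, Ap2b1, Fcho2, Cltc, Insr, Egfr, Pdgfra and Col1a1, and the neighbours given by name, were added after their values were seen. Members and lists were chosen with earlier results of these data known.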

Additional observations from a re-analysis of the deposited data

How the results depend on the processing

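In the knockout clone against parental cells, Cavin1, Cavin3 and Ehd2 were called lower under all 17 alternatives run and Cav1 and Cav2 under none of them, with no direction reversed. Pacsin2 kept its call in 11 of 17, and its adjusted p by edgeR was 0.134 without the filter on low counts. Cavin2 was called in 2. The number of genes called was 4131 in that comparison, 6840 with only the compared groups in the fit and 2515 to 5693 when single libraries were left out. In the control clone against parental cells it was 2814, then 1525 and 1472 to 4102. No other count of all genes called moved by more than 1.5 times.

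The replicate numbers did not pair the libraries: same-numbered libraries correlated between -0.134 and 0.212 in their deviations from the group means, and 1 of 9 such pairs passed 0.1. With the replicate number as a block, 3941, 5528 and 2492 genes were called (knockout against parental, knockout against control, control against parental), and the members called against parental cells numbered 4. Of the tested members Cavin3 rests on the fewest counts, and 1 clone per group limits every comparison.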
